A study of Mus musculus with 20 samples.

Results

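The BTG, TOB and GADD45 genes are small antiproliferative genes, and 8 of them were examined here: Btg1, Btg2, Btg3, Tob1, Tob2, Gadd45a, Gadd45b and Gadd45g. A gene was represented by a probe set annotated to it alone, and where there were several by the one with the highest mean over all 20 arrays. By that rule 7 of the 8 genes had a value, out of 18193 genes on the array. The probe set that names Btg3 also names Gm7334, so no value is given for Btg3. The arrays measured RNA of CFU-E cells, the late committed erythroid progenitors that depend on erythropoietin (Epo), from livers of BALB/c mouse embryos of day 13.5. Cells were obtained by lysis of red cells and magnetic removal of cells carrying Ter119 or markers of other blood lineages. Per the design text, fresh cells were starved for 1 h in a medium with albumin and then kept with Epo at 0.5 U/ml or without it. The labels' protocol also describes a culture of the sorted cells with Epo, and how that step relates to the arrays was not worked out. The series with Epo had 12 arrays, at each hour from 0 to 8 h and at 14, 19 and 24 h. The series without Epo had 8 arrays, at each hour from 0 to 7 h, and its labels gave no other difference in strain, stage or sort. Markers of other cells nonetheless differed between the series at 0 h, as given below.

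Each treatment and time had 1 array, and nothing in the labels says that times came from separate cultures. The p-values below therefore measure the scatter between arrays of successive hours, which may be technical. In cells pooled for an array, fewer cells of a type and less RNA per cell cannot be told apart.

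BTG and TOB proteins share an amino-terminal domain that binds the CAF1 subunits of the CCR4-NOT complex, which shortens poly(A) tails of mRNA, and TOB proteins also bind poly(A)-binding protein. BTG1 and BTG2 bind the arginine methyltransferase PRMT1, and members of the family slow passage from G1 into S phase in many cell types. GADD45 proteins are small acidic stress proteins that bind the kinase MEKK4 upstream of p38 and JNK, the CDK1-cyclin B complex and PCNA. In erythroid progenitors, Epo acts through the receptor EPOR and JAK2 and keeps cells alive and dividing before terminal maturation.

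The 250 bases before the RefSeq start of each gene (GRCm38.p6) were searched on both strands for FOXO (GTAAACA), E-box (CACGTG), STAT5 (TTCNNNGAA), AP-1 (TGANTCA) and ATF/CRE (TGACGTCA) letters. The windows of Btg1, Btg2 and Gadd45g are shown because these are the genes whose levels differed most between the series. Each is written 5′ to 3′ on the strand of the gene, with the matched motif in capitals.

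Btg1, chr10:96616751-96617000, plus strand, FOXO letters in reverse complement: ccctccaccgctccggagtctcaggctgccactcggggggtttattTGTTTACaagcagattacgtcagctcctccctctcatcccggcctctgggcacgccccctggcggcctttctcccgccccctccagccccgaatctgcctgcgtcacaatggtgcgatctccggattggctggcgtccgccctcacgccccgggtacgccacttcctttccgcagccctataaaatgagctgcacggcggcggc
Btg2, chr1:134079156-134079405, minus strand, ATF/CRE letters: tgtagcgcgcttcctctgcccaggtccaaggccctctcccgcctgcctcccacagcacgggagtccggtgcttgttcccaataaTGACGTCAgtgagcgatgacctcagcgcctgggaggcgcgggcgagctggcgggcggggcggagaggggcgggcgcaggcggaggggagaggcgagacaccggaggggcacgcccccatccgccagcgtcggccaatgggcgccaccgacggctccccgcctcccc
Gadd45g, chr13:51846425-51846674, plus strand, E-box letters: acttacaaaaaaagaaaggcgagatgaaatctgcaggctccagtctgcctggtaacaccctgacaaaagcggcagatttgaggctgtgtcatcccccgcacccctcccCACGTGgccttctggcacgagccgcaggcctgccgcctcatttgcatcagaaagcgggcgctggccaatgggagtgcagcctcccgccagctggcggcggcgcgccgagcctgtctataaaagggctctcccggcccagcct

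In the Btg1 window the FOXO letters lay 204 to 198 bases before the start, and 3.17% of the 32851 RefSeq windows of this length held them. In the Btg2 window the ATF/CRE letters lay 166 to 159 bases before the start, and 1.55% of windows held them. The E-box of Gadd45g lay 142 to 137 bases before the start, and Gadd45b had one at 185 to 180 bases; 6.02% of windows held an E-box. No STAT5 letters, held by 7.02% of windows, and no AP-1 letters, held by 6.75%, were found in the windows of the 7 measured genes, and those of Tob1, Tob2 and Gadd45a matched none of the motifs. These are matches of letters and say nothing of binding.

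All values are log2 array signals as deposited, so a difference of 1 is a 2-fold change. The level of one probe set cannot be set against that of another as an amount of RNA, and the means are given only to place each gene on the array. All 7 measured genes lay above the median gene mean of 4.91. Btg1 had the highest mean level over the 20 arrays, 9.62, followed by Gadd45a at 9.47, Btg2 at 8.32, Tob2 at 7.18, Tob1 at 6.80, Gadd45g at 6.56 and Gadd45b at 5.95. Btg4, the remaining family gene on the array, had a mean of 3.11, and 21.4% of genes lay below it.

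Of the 7 genes, 5 were lower with Epo than without it at the matched times from 1 to 7 h and none was higher. These were Gadd45g, Btg2 and Btg1, which were 4.42- to 5.99-fold lower, and Tob1 and Tob2, which were 1.57- and 1.26-fold lower. The call was an adjusted p under 0.05 in limma, with time as a block and Benjamini-Hochberg adjustment over all genes. The background was large: 20.2% of all genes were called lower and 18.2% higher. When each array was centred on its median, the share of called genes that were higher went from 47.4% to 34.8%. Fitted alone, the 9097 brighter genes (mean at or above the median gene) had 5582 called in either direction, against 6981 of all 18193. All 7 lay among the brighter genes, so shares over all genes are low backgrounds for them, here and in the other fits. Of the 7, 6 were lower and 0 higher at an unadjusted p under 0.05. The share of all genes at that unadjusted threshold was not worked out, here or below, so such counts have no background. The median difference of the 7 genes, Epo minus no Epo, was -0.65 on the log2 scale, and that of all genes was 0.03.

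**Figure D1:**
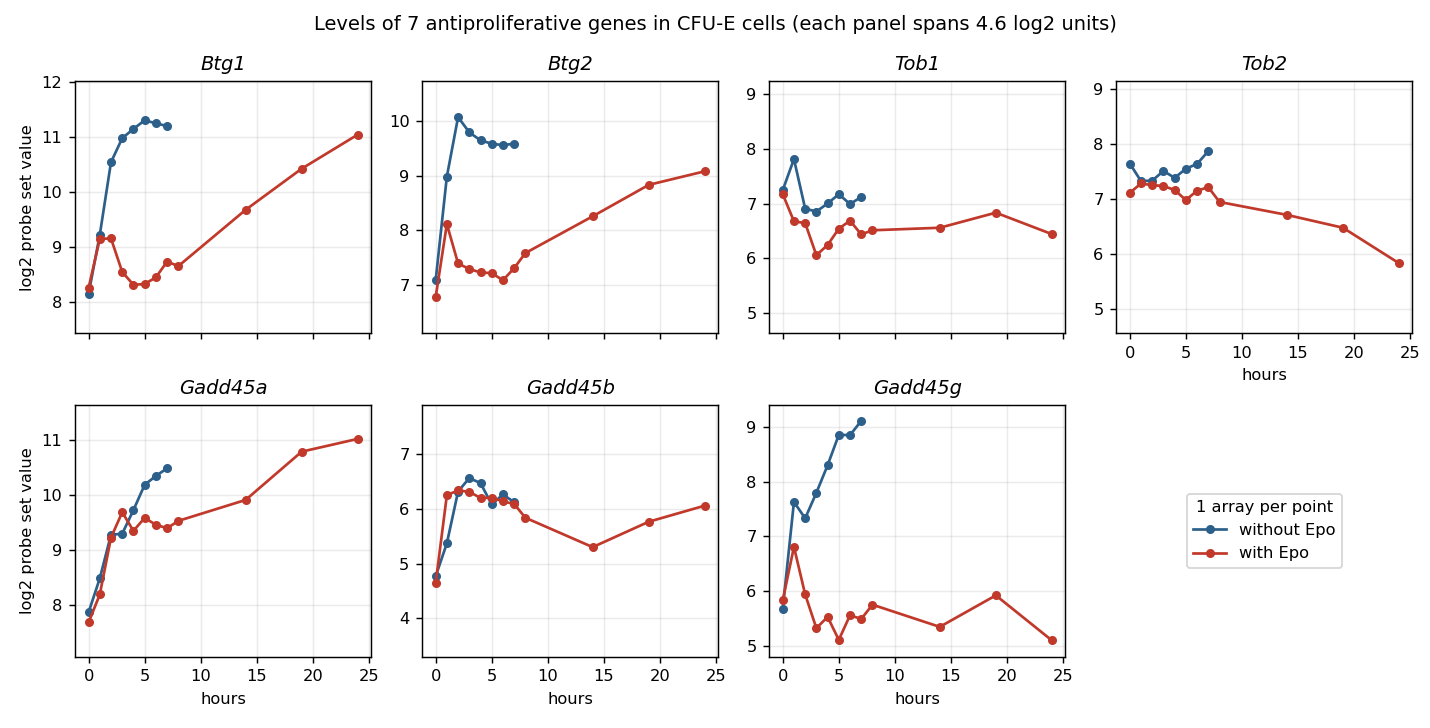
Log2 array signal of each measured gene (1 panel per gene) against hours, with Epo (12 arrays) and without (8 arrays), 1 point per array. Btg2 and Gadd45g differ between the series by -0.87 and -0.82 at 1 h and Btg1 by -1.39 at 2 h. With Epo, Btg1 and Btg2 rise above their earlier levels at 14 to 24 h while Gadd45g does not.

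Btg1, named for a translocation in B cell leukaemia and an mRNA decay adaptor, was at 8.14 at 0 h without Epo. It was at 9.22 at 1 h, 10.54 at 2 h and 10.98 at 3 h, and lay between 11.15 and 11.31 from 4 to 7 h. With Epo it was at 8.25 at 0 h, 9.15 at both 1 and 2 h, and between 8.31 and 8.73 from 3 to 8 h (SD 0.17, n = 6). The series met at 0 and 1 h and lay apart at each hour from 2 h, and the arrays of 1 to 7 h did not overlap between them. The matched difference was -2.14 ± 0.30 (SE, 7 pairs), which is 4.42-fold lower with Epo (adjusted p = 0.000174). It went from -0.07 at 1 h to -2.98 at 5 h. A second probe set of Btg1 gave -2.30 ± 0.28, and another, dim one, with a mean level of 3.92, gave -0.19 (adjusted p = 0.178 over all probe sets).

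Btg2, also known as a p53-induced and immediate-early gene, was at 7.09 at 0 h without Epo, the lowest array of that series. It was at 8.98 at 1 h and 10.06 at 2 h, and stayed between 9.55 and 9.79 from 3 to 7 h. With Epo it was at 6.78 at 0 h, 8.11 at 1 h, 7.40 at 2 h and between 7.09 and 7.59 from 3 to 8 h (SD 0.17, n = 6). Both series thus had a higher value at 1 h than at 0 h, and only the one without Epo was higher still at 2 h. The matched difference was -2.22 ± 0.18 (SE, 7 pairs; adjusted p = 5.47e-06), or 4.65-fold lower with Epo. Hour by hour it was -0.87 at 1 h and between -2.67 and -2.27 from 2 to 7 h. The other Btg2 probe set gave -1.75 ± 0.19.

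Tob1, which joins poly(A)-binding protein to CCR4-NOT and was described as a brake on T cell activation, lay between 6.86 and 7.81 without Epo at 1 to 7 h (median 7.00). With Epo it lay between 6.06 and 6.69 at the same hours (median 6.54). The ranges did not overlap, and the difference was -0.65 ± 0.12 (SE, 7 pairs; adjusted p = 0.000875). The highest array without Epo was that of 1 h, where the matched difference was -1.14. At 0 h the series were at 7.25 and 7.17.

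Tob2, the close relative of Tob1, lay between 7.32 and 7.87 without Epo (median 7.51) and between 6.98 and 7.28 with Epo (median 7.21) at 1 to 7 h. The difference was -0.33 ± 0.10 (SE, 7 pairs; adjusted p = 0.0247), yet at 0 h the series already stood at 7.65 and 7.11, a difference of -0.53. The probe sets of Tob2 did not move alike: the 2 with cross-hybridising suffixes, the used one among them, gave -0.33 and -0.39. The other 3, without such a suffix, gave -0.06, -0.03 and 0.00 (adjusted p from 0.726 to 0.975 over all probe sets). The Tob2 call was lost with quantile normalization (adjusted p = 0.211) and with the mean of its probe sets (0.16). It was also lost with probe sets that carry no cross-hybridising suffix (0.725) and without 5, 6 or 7 h (0.072 to 0.074).

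Gadd45g, a GADD45 gene induced by cytokines in several blood lineages, had the largest difference of the 7. Without Epo it was at 5.68 at 0 h, 7.63 at 1 h, 7.33 at 2 h and 7.80 at 3 h, and between 8.30 and 9.11 from 4 to 7 h. With Epo it was at 5.83 at 0 h, 6.81 at 1 h and 5.94 at 2 h, and between 5.11 and 5.76 from 3 to 8 h (SD 0.22, n = 6). Both series had a higher value at 1 h than at 0 h, and the matched difference was 0.15 at 0 h and -0.82 at 1 h. The matched difference was -2.58 ± 0.32 (SE, 7 pairs; adjusted p = 7.42e-05), or 5.99-fold lower with Epo, and at 5 h it reached -3.74. Gadd45g had 1 probe set.

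Gadd45a, the GADD45 gene best known as a p53 target after DNA damage, climbed in both series. Without Epo it was at 7.86 at 0 h and 10.49 at 7 h, and each hour was higher than the one before. With Epo it was at 7.68 at 0 h and between 9.22 and 9.69 from 2 to 8 h. The matched difference of -0.42 ± 0.15 (SE, 7 pairs) missed the threshold (adjusted p = 0.0517). It passed without the 3 h pair (-0.55, adjusted p = 0.0107), where Gadd45a was higher with Epo by 0.39, and also without 2 h (0.0451), with arrays centred on their medians (0.0275), and under 3 other settings.

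Gadd45b, an early target of NF-κB and TGF-β signalling, stood at 4.77, 5.37 and 6.31 at 0, 1 and 2 h without Epo, and at 4.64, 6.25 and 6.33 with it. At 1 h it was the only one of the 7 with a higher value in the Epo series, by 0.88. From 2 to 7 h the matched differences lay between -0.27 and 0.12. Over 1 to 7 h the difference was 0.05 ± 0.13 (SE, 7 pairs; adjusted p = 0.808).

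**Figure D2:**
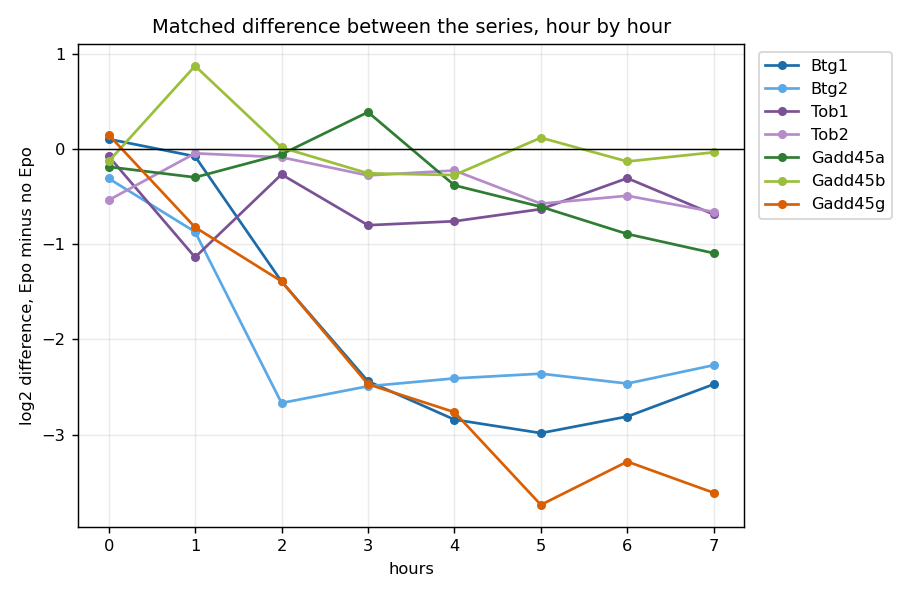
Log2 difference, Epo minus no Epo, between the 2 arrays of each hour (y axis) against hours (x axis), 1 line per gene. Btg2 is at -2.67 by 2 h and stays near that value, Btg1 and Gadd45g reach -2.44 and -2.47 at 3 h, and Gadd45b leaves 0 mainly at 1 h.

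The arrays of 1 to 7 h did not overlap between the series for 5 of the 7 genes, Btg1, Btg2, Tob1, Tob2 and Gadd45g, all lower with Epo. Over all genes, 7.31% did not overlap and were lower, and 6.56% did not overlap and were higher. At 1 h without Epo, 3 of the 7 genes were at least 1 above their own 0 h value, Btg1 by 1.08, Btg2 by 1.89 and Gadd45g by 1.95, a size that 0.374% of genes reached. With Epo, 2 of the 7 did so, Btg2 by 1.33 and Gadd45b by 1.61, against 0.341% of genes. These 1 h values rest on 1 array each and have no test.

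The series were not identical at 0 h, where 551 of 18193 genes (3.03%) lay at least 1 apart, none of them among the 7. When the 0 h difference was subtracted, 3 of the 7 genes were called lower with Epo and none higher, against 2.39% and 1.34% of genes. Of the 9097 brighter genes fitted alone, 739 were called in either direction. Gadd45g was lower, at -2.74 ± 0.36 (adjusted p = 0.00178), Btg1 at -2.25 ± 0.49 (0.0219) and Btg2 at -1.91 ± 0.42 (0.0225). Tob1 was at -0.58 ± 0.29 (adjusted p = 0.321) and Tob2 at 0.20 ± 0.22 (0.729), so neither passed. The same 3 genes were those below an unadjusted p of 0.05. This comparison rests on 1 pair of 0 h arrays: without the 6 h pair, or with the variance fitted without trend or robustly, only Gadd45g was called, and when no drift of the differences over time was allowed no gene of the 7 was.

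**Figure D3:**
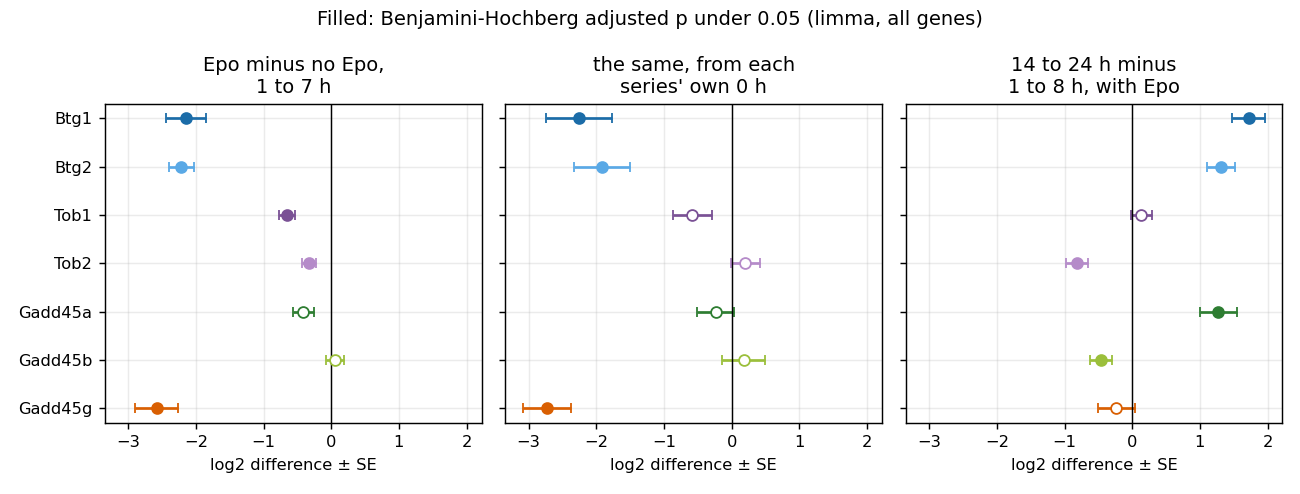
Fitted log2 difference, Epo minus no Epo, of each gene at 1 to 7 h and after subtraction of the 0 h difference, with bars of 1 SE. Gadd45g, Btg2 and Btg1 lie near or below -2 in both fits, and Tob2 changes sign between them.

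The matched difference changed with time in 3 of the 7 genes, all toward lower values with Epo, against 7.97% of genes in that direction and 7.25% in the other. Of the 9097 brighter genes fitted alone, 2930 were called in either direction. The slope was -0.48 ± 0.06 per hour for Gadd45g (SE; adjusted p = 0.000166), -0.38 ± 0.09 for Btg1 (0.00735) and -0.18 ± 0.05 for Gadd45a (0.0177). Btg2, whose difference was in place by 2 h, had a slope of -0.13 ± 0.07 (adjusted p = 0.299). Without the 1 h pair, Btg1 had a slope of -0.19 (adjusted p = 0.0922), its call was also lost with a robust fit (0.125), and the Gadd45a call was lost without 2, 6 or 7 h or on a log2 time scale.

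Within the series without Epo, 3 of the 7 genes rose over 0 to 7 h and none fell, where 13.3% of all genes rose and 15.4% fell. Of the 9097 brighter genes fitted alone, 4903 were called in either direction. Gadd45g rose by 0.42 ± 0.06 per hour (SE, 8 arrays; adjusted p = 0.000201), Btg1 by 0.41 ± 0.08 (0.0016) and Gadd45a by 0.37 ± 0.03 (1.51e-05). Btg2, which was at its highest at 2 h, had a slope of 0.22 ± 0.09 per hour (adjusted p = 0.104), which was 0.02 without the 0 h array (0.828). It was called on a log2 time scale (adjusted p = 0.0105) and without 2 h (0.028). At an unadjusted p under 0.05, 5 of the 7 were higher and 0 lower, with no share of all genes to set beside this.

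With Epo over the same hours only Gadd45a was called, by 0.23 ± 0.05 per hour (SE, 8 arrays; adjusted p = 0.0173), against 2.21% of genes called higher and 5.88% lower. The call was lost without the 0 h array (0.14, adjusted p = 0.152), without that of 1 h, or with a robust variance fit. Gadd45g had a slope of -0.13 ± 0.05 with Epo (adjusted p = 0.157). Of the 9097 brighter genes fitted alone, 1288 were called in either direction.

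In the later hours with Epo, the family divided. The mean of the arrays at 14, 19 and 24 h was set against that of 1 to 8 h, and 3 of the 7 genes were called higher and 2 lower, against 17.6% and 18.5% of genes. With arrays centred on their medians, the share of all called genes that were higher went from 48.7% to 37.1%. The median difference of the 7 genes was 0.14, and that of all genes 0.08. Of the 9097 brighter genes fitted alone, 5062 were called in either direction.

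Btg1 was at 9.67, 10.42 and 11.05 at 14, 19 and 24 h, a rise of 1.72 ± 0.25 (SE; adjusted p = 0.000137), or 3.30-fold. Btg2 was at 8.26, 8.83 and 9.08, a rise of 1.32 ± 0.21 (0.000268), or 2.49-fold. Gadd45a was at 9.91, 10.79 and 11.02, a rise of 1.27 ± 0.28 (0.00243), or 2.42-fold. Each of the late arrays of these 3 genes was above each array of 1 to 8 h with Epo.

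Tob2 was at 6.71, 6.48 and 5.83, lower, at -0.82 ± 0.17 (SE; adjusted p = 0.00151). Its other probe sets ranged from -0.42 (adjusted p = 0.0456 over all probe sets) to 0.42 (0.0256), so probe sets of Tob2 were called in both directions. Gadd45b was at 5.30, 5.76 and 6.06, lower, at -0.46 ± 0.16 (adjusted p = 0.0331). Its other probe sets gave -1.05 (adjusted p = 0.00257 over all probe sets) and, for a dimmer one, -0.03 (0.886). Without the 14 h array the call of Gadd45b was lost, at -0.26 (0.204). That call was also lost without 3, 4 or 19 h, with quantile normalization, and against 6 to 8 h (0.345) or 0 to 8 h (0.439). The Tob2 call was lost against 6 to 8 h (adjusted p = 0.0556) and with the mean of its probe sets (-0.12, 0.33), and with probe sets without cross-hybridising suffixes the value was 0.27 (0.164). Gadd45g stayed low, at 5.35, 5.92 and 5.10, with a difference of -0.23 (adjusted p = 0.538), and Tob1 had a difference of 0.14 (adjusted p = 0.515).

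No array without Epo went past 7 h, so late levels can only be set beside the last one without Epo, at different times. At 24 h with Epo, Btg1 stood at 11.05, against 11.20 at 7 h without it, Btg2 at 9.08 against 9.58 and Gadd45a at 11.02 against 10.49. Gadd45g stood at 5.10 against 9.11. Hence Btg1, Btg2 and Gadd45a were within 0.54 of those levels at 24 h and Gadd45g was 4.00 below.

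**Figure D4:**
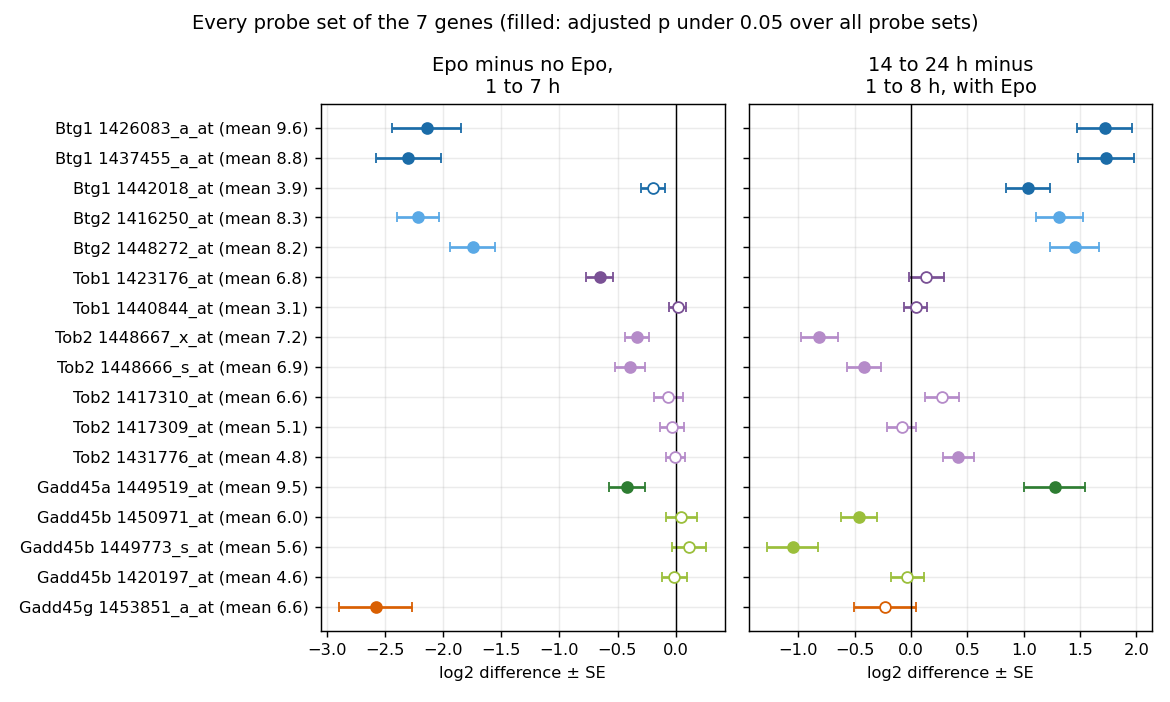
Fitted log2 differences of every probe set annotated to 1 of the measured genes alone, for Epo minus no Epo at 1 to 7 h and for 14 to 24 h minus 1 to 8 h with Epo, with bars of 1 SE. The brighter probe sets of Btg1 and both of Btg2 lie together, and those of Tob2 range from -0.39 to 0.00 between the series and from -0.82 to 0.42 in the late comparison.

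Markers of other cells also moved. Of 9 hepatocyte markers 8 were measured, and all 8 were higher in the Epo series at 0 h (median 1.40). At 1 to 7 h, 6 of the 8 were called higher with Epo and 0 lower, and after subtraction of the 0 h difference 0 were called higher and 0 lower. Their summed level, on the log2 scale, was 12.29 to 13.56 without Epo and 12.79 to 14.40 with Epo at 1 to 7 h, and 8.53 to 11.21 at 14 to 24 h. For granulocyte markers, 0 of 7 measured were higher with Epo at 0 h (median -0.96), and the summed level was 7.80 to 10.09 without Epo and 7.84 to 8.27 with it at 1 to 7 h. The SD over all probe sets of an array was 2.53 to 2.56 without Epo, 2.48 to 2.51 with Epo at 1 to 7 h, and 2.31 to 2.43 at 14 to 24 h. The summed level of the 5 measured of 6 megakaryocyte markers was 7.62 to 7.94 with Epo at 1 to 7 h and 8.70 to 8.96 at 14 to 24 h, where 2 of the 5 rose, Pf4 by 2.03 and Gp9 by 0.97. Of 8 erythroid markers 7 were measured, of which 4 were lower and 0 higher with Epo at 1 to 7 h, among them Epor at -0.89 and Gata1 at -0.72, and 5 were higher and 0 lower at 14 to 24 h. At 0 h these 7 markers already had a median difference of -0.24, and after its subtraction 0 were called higher and 0 lower. Their summed level was 13.97 to 14.79 without Epo and 13.55 to 14.45 with Epo at 1 to 7 h, and 14.42 to 14.77 at 14 to 24 h. Among them, Epor, Gata1, Klf1, Tfrc, Slc4a1 and Trim10 lay between 9.45 and 13.51 at 1 to 7 h in both series, while the Hba-a1 probe set lay at 3.19 to 3.60. The part of these shifts in the results was not tested.

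Among genes of the deadenylation machinery and other partners of BTG and TOB, 16 of 17 listed were measured; 2 were higher and 9 lower with Epo at 1 to 7 h, with a median of -0.41 on the log2 scale. Prmt1, the methyltransferase bound by BTG1 and BTG2, was higher by 1.14 ± 0.29 (SE, 7 pairs; adjusted p = 0.00851), and by 1.27 after subtraction of the 0 h difference (0.0243). Cnot7, a CAF1 deadenylase bound by BTG and TOB proteins, was higher by 0.77 ± 0.13 (adjusted p = 0.000789). Cnot2, a subunit of CCR4-NOT, was lower, at -0.78 ± 0.09, and so was Pan2, the catalytic subunit of the other main deadenylase, at -0.77 ± 0.09. At 0 h the list already had a median difference of -0.32, and after its subtraction 1 of 16 was called higher, 0 lower, with a median of -0.04.

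For the partners of GADD45 proteins, 11 of 13 listed were measured, and 1 was higher and 2 lower with Epo (median -0.03). Gadd45gip1, which encodes a nuclear and mitochondrial binder of GADD45 proteins, was higher by 0.47 ± 0.08. Mapk14, which encodes p38α, was lower, at -0.44 ± 0.09, and Map2k6, a kinase that activates p38, at -0.27 ± 0.10. After subtraction of the 0 h difference none of the 11 was called, with a median of 0.07.

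Among transcription factors reported to act on 1 or more of these genes, 11 of 13 were measured, and 1 was higher and 7 lower with Epo (median -0.52). Egr1, an immediate-early zinc finger factor, was higher by 2.33 ± 0.23 (SE, 7 pairs; adjusted p = 1.94e-05). Foxo3, a forkhead factor that is inactivated by AKT, was lower, at -1.56 ± 0.16 (2.18e-05). Smad3, a mediator of TGF-β signalling, was lower, at -1.49 ± 0.19, and Foxo1 at -1.06 ± 0.18. After subtraction of the 0 h difference none of the 11 was called, with a median of -0.38. In the late hours with Epo, Foxo3 rose by 1.57 ± 0.25 (adjusted p = 0.000269) and Egr1 fell by 3.91 ± 0.72 (0.000762). These lists are described by their counts, beside 18.2% of all genes called higher and 20.2% lower at 1 to 7 h.

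**Figure D5:**
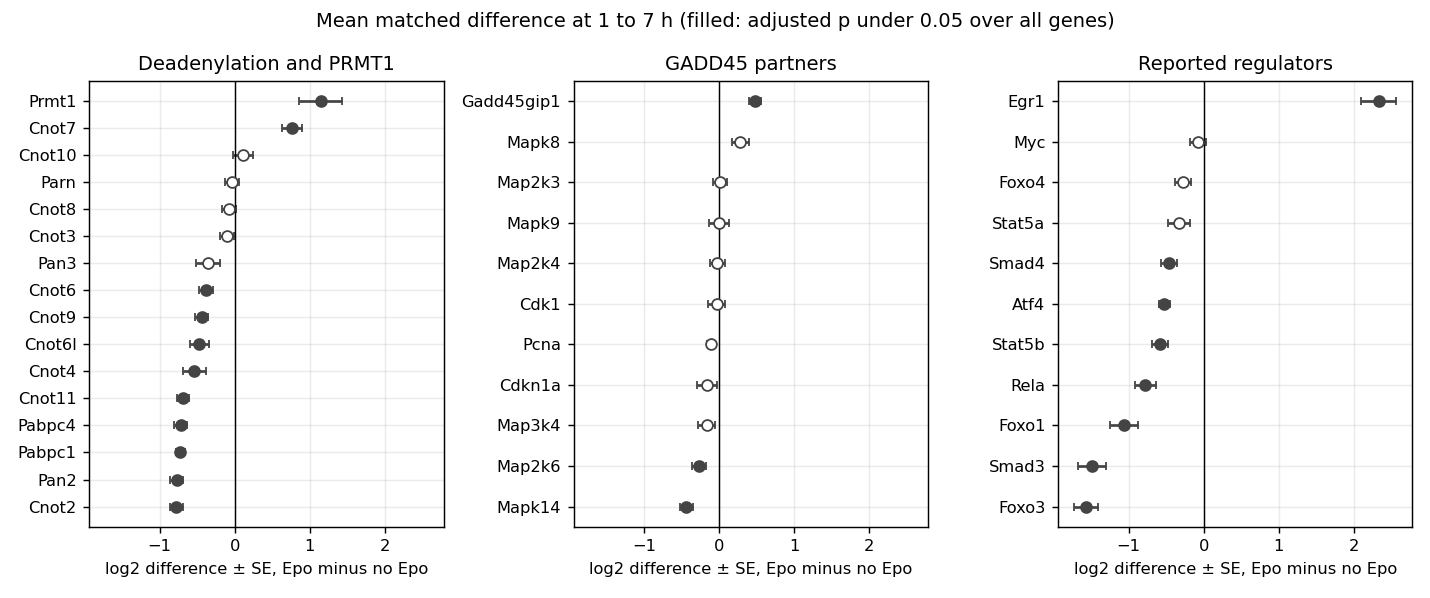
Fitted log2 difference, Epo minus no Epo at 1 to 7 h, for each measured gene of the deadenylation, GADD45 partner and regulator lists, with bars of 1 SE. Egr1 at 2.33 and Prmt1 at 1.14 are the highest, and Foxo3 at -1.56 and Smad3 at -1.49 the lowest.

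Over the 20 arrays, the genes whose profile was most like each member were taken by Pearson correlation among the 9097 genes with a mean at or above the median gene. The arrays share their time courses, so the values describe likeness only. For Btg2 the closest were Bbc3, which encodes the apoptosis protein PUMA, at r = 0.98, 3110040M04Rik at 0.95 and Klf11 at 0.95. For Btg1 they were the autophagy gene Atg12 at 0.97, Bsdc1 at 0.96 and again Bbc3 at 0.96. Gadd45g was closest to LTO1, Anapc7, a subunit of the anaphase-promoting complex, and Bcl7b, each at 0.96. Gadd45a was closest to Xk at 0.95, to the glycine transporter gene Slc6a9 at 0.95 and to the p53 target Trp53inp1 at 0.94. Tob2 was closest to Ywhaz at 0.98, Atp7b at 0.97 and the deadenylase gene Cnot6 at 0.97. Tob1 and Gadd45b had no neighbour as close: Tob1 was nearest to Dhx32 at 0.86, Cul4a at 0.83 and Cpt2 at 0.83, and Gadd45b to Traf5 at 0.85, Pip5k1a at 0.77 and Tnfrsf13c at 0.76.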

How the data were processed

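RNA was measured on 20 Affymetrix mouse arrays, 12 with Epo and 8 without. The deposited table holds log2 values between 1.37 and 14.56. For the summary of probes, the scaling and the programs used, the authors' choices are not given in the sources used here. Detection calls were not used. Depth has no counterpart on arrays, and their number limits the precision.

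Of 45101 probe sets, 34945 named 1 gene in the platform annotation, 932 several, and 9224 were controls or unnamed here. For 34741 the gene was found in a RefSeq gene table (GRCm38.p6). Each of 18193 genes took its highest-mean probe set, with no filter on dim genes.

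Fits used limma 3.58.1 in R 4.3.3 (empirical Bayes with trend) on all genes, with Benjamini-Hochberg adjustment and calls at an adjusted p under 0.05. The Epo comparison used the 7 matched pairs of 1 to 7 h with time as a block, a paired design taken from the time labels. Further fits subtracted the 0 h difference (allowing a linear drift), took the slope of the matched differences, the slope within each series over 0 to 7 h, and the mean of 14 to 24 h minus that of 1 to 8 h. The fits were also run on simulated arrays with known changes. The simulated noise was independent between arrays, so that run cannot show how the p-values hold for successive hours. Alternatives covered scaling, probe sets, the variance model, time scales and leaving out each time. Members and lists were chosen with earlier results of these data known. Named were the 8 genes, Btg4, the 3 genes most correlated with each, and up to 4 called genes of each list with the largest difference. Listed genes without a probe set of their own, such as Cnot1, Trp53 and Nfkb1, were not analysed here. Tables were made with pandas 2.3.3 and numpy 2.4.6 (Python 3.11.15), with plots in matplotlib 3.10.9.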

Additional observations from a re-analysis of the deposited data

Results flagged for a closer look

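Single arrays stood apart in 2 of the 7 sets of 8 arrays without Epo, 1 set per measured gene, by Dixon's test. That test marks about 1 in 20 groups of repeats by chance. The arrays with Epo were not tested in this way. The 8 arrays of a set are successive hours of a time course, so that rate need not hold. A distance here can be the change with time itself. Without Epo, Btg2 at 0 h was at 7.09, below the other arrays of that series. Without Epo, Tob1 at 1 h was at 7.81, above the others.

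The difference between the series changed with time, by the interaction of treatment and time, in 3 genes. The slope of the Epo difference per hour was -0.38 for Btg1, -0.18 for Gadd45a and -0.48 for Gadd45g.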

How the results depend on the processing

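Of 700 results of single genes under alternatives, 645 stayed on their side of the threshold, 38 lost the call, 16 gained it and 1 reversed. A change of sign counted as reversed only where the main fit or the alternative was called. The 645 thus include uncalled results that changed sign, such as Gadd45b at 1 to 7 h (0.05, and -0.02 with arrays centred on their medians). The reversed result was Tob2 in the late hours, at 0.27 (adjusted p = 0.164) with probe sets without cross-hybridising suffixes. That setting leaves out probe sets ending in _x_at, _s_at or _a_at where a gene has others, although _a_at does not mark cross-hybridisation. It therefore takes a dim probe set for Btg1 in place of its brighter _a_at ones. The _a_at one of Gadd45g is kept, since that gene has no other. At 1 to 7 h, 3 genes, Gadd45g included, were then lower with Epo in place of 5.

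After subtraction of the 0 h difference, where 678 of all genes were called, 3 of the 7 genes were lower. It was 1 without the variance trend, 1 with a robust fit and 0 with no drift (3 at an unadjusted p under 0.05 in limma), and 1 to 3 with a time left out. Of all genes, 414 were called with the mean of probe sets, 327 without the trend, 12 with no drift and, with a time left out, 173 (without 6 h) to 2007 (without 1 h). For the change of the difference with time, 2769 genes were called, and 1736 to 2693 with a time left out.

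Without Epo, 5 genes in place of 3 rose on a log2 time scale, and 3 to 5 with a time left out. With Epo, 0 in place of 1 rose with a robust fit and 0 without 0 h (1 at an unadjusted p under 0.05 in both), and 0 to 1 with a time left out; of all genes 1472 were called, and 915 to 1444 with a time left out. In the late hours, lower calls numbered 2, but 1 with quantile normalization, 1 with the mean of probe sets, 1 without suffixes, 1 against 0 to 8 h, 0 against 6 to 8 h (1 at an unadjusted p under 0.05), and 1 to 2 with a time left out. Of all genes 6579 were called, 2896 against 6 to 8 h and 4232 to 7255 with a time left out. Where not stated, the cause was not tested.

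Without the replicate block of time, 5 of the 7 genes were lower with Epo, as with it. The number of arrays, 1 for each treatment and time, limits all of these comparisons.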

Other observations

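Among the members themselves, Btg1 and Btg2 followed each other closely, with a Pearson r of 0.94 over the 20 arrays, 0.88 over the 8 without Epo and 0.96 over the 12 with Epo. Gadd45a and Gadd45g did so only without Epo, with r of 0.94 there, -0.55 with Epo and 0.17 over all arrays. Btg1 and Gadd45g had r of 0.89 without Epo and -0.04 with it. The arrays of a series share one time course, so these values are descriptions, and the differences between them were not tested.

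Btg4, the family gene best known from the oocyte, lay between 2.79 and 3.56 over the arrays with Epo and between 2.83 and 3.25 without. Its difference at 1 to 7 h was 0.08 ± 0.08 (SE, 7 pairs; adjusted p = 0.475).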
